A study of Mus musculus with 9 samples.

Results

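Transcripts of 40 genes that sense DNA double-strand breaks, signal from them or repair them were followed in striatal cells with and without the Huntington disease (HD) mutation. The genes were chosen by symbol and function, with earlier results of these data known but without a rule on their values, out of 36410 genes in a table of read counts, and all 40 were listed and had enough counts to be tested, among 13508 genes that did. The counts come from 9 RNA-seq libraries of immortalized striatal cells derived from mouse embryos, labelled as strain C57/BL6, with 3 libraries from each of 3 lines. Control cells (STHdhQ7/Q7) carry 7 glutamine repeats in both huntingtin alleles. HD-het cells (STHdhQ7/Q111) carry 7 repeats in 1 allele and 111 in the other. HD-homo cells (STHdhQ111/Q111) carry 111 in both. Each genotype is a single line, so the effects of genotype and of the line cannot be told apart. The labels do not say whether the 3 libraries of a line came from separate cultures. The p-values therefore measure only the spread between these libraries, which may be technical.

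A double-strand break is bound by the complex of Mre11, Rad50 and Nbn, which activates the kinase Atm, while single-stranded DNA at a processed end activates the kinase Atr. Phosphorylation of the histone variant H2AX and ubiquitin marks laid by Rnf8 and Rnf168 then recruit Trp53bp1, which favours direct end joining, or the Brca1-Bard1 complex, which favours resection of the ends and copying from the sister chromatid. Homologous recombination is largely confined to cells that are replicating or have replicated their DNA, and post-mitotic neurons rely mainly on end joining, which is why repair genes are read beside genes of the cell cycle below.

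Between 29507665 and 41197931 counts per library fell on genes, and detection was set at 3 counts, or 0.0710 to 0.101 CPM (counts per megaread, normalized by edgeR's TMM method). This floor covers counting error only. Replicate libraries differed by more than counting noise, least between control replicates 1 and 2, with 2.20 times the variance of counting alone, and most among the HD-homo libraries, with 22.6 to 39.2 times. The lines do not carry the markers of mature striatal neurons. Drd1, the dopamine receptor of direct-pathway projection neurons, had 0 counts in all 9 libraries, and 12 markers of striatal projection neurons summed to between 3.85 and 7.65 CPM. Genes of neural progenitors and of mesenchyme, and the huntingtin transcript itself, differed between the lines. Of 6 progenitor markers, Nes had mean levels of 526 CPM in control, 840 in HD-het and 28.4 in HD-homo cells, in the same order Sox2 128, 82.9 and 5.48 CPM and Pax6 32.1, 48.2 and 0.132 CPM, whereas Vim, with 5383, 4568 and 4264 CPM, made up most of the list's sum of 4158 to 6357 CPM. Of the 5 that were tested, 4 were lower and 1 higher in HD-homo and 2 lower and 3 higher in HD-het cells. The 7 markers of mesenchyme and mural cells summed to 4621 to 5854, 12790 to 14740 and 6532 to 7095 CPM and moved in both directions. Acta2 had 2271, 5290 and 91.9 CPM, Col1a2 73.4, 3.15 and 1494 CPM and Pdgfra 5.21, 4.38 and 307 CPM. Of 8 neuronal markers, summing to 92.1 to 171 CPM, Stmn2 had 53.7 CPM in control, 2.71 in HD-het and 2.75 in HD-homo cells. The others did not share this fall. Of the 3 that were tested, 1 was lower and 1 higher in HD-het and 1 lower and 0 higher in HD-homo cells, with median log2 fold changes of -0.06 and -0.17. Astrocyte markers summed to 3.76 to 3.92 CPM in control, 1.38 to 1.89 in HD-het and 13.8 to 18.9 in HD-homo libraries, and those of oligodendrocyte lineage, microglia and endothelium to at most 16.5, 2.51 and 1.55 CPM in any library. Htt differed from control by -0.68 in HD-het and -2.31 in HD-homo cells on the log2 scale, and these counts do not read the repeat length. The part that such differences between the lines have in the results below was not tested.

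All of the break genes were transcribed in every line. Their mean level over the 9 libraries ran from 3.39 to 260.0 CPM, with a median of 36.8 CPM beside 27.4 CPM for all tested genes. Per kilobase of the longest coding transcript, the order in control cells was led by H2afx, the histone variant phosphorylated around breaks, at 111 ± 3.51 CPM per kilobase (SD, n = 3). Parp1, a sensor of DNA nicks and breaks, followed at 50.1 ± 2.84 CPM per kilobase and Topbp1, an activator of Atr, at 48.3 ± 0.625 CPM per kilobase. The Topbp1 mean lay within the SD of Parp1, but the Parp1 mean lay outside the SD of Topbp1. At the low end stood the recombination gene Rad51b, the nuclease Dclre1c and the DNA-dependent protein kinase Prkdc, with 1.66 ± 0.0863, 1.67 ± 0.134 and 1.78 ± 0.204 CPM per kilobase, and these did not differ beyond their spread.

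Against control cells, HD-homo cells had 14 of the 40 genes higher and 7 lower at an adjusted p under 0.05 (edgeR's quasi-likelihood test, two-sided, adjusted by Benjamini-Hochberg over all 13508 genes). These 21 genes are 52.5% of the set, beside 58.6% of all tested genes, of which 29.6% were higher and 28.9% lower. The changes were small. The median log2 fold change of the set was 0.15, beside 0.01 for all genes, and its median size regardless of sign was 0.25, beside 0.32. When the test asked for a change of more than 1.5-fold, Rad51c passed as higher and Bard1 as lower, which is 5% of the set beside 20.6% of all genes.

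In HD-het cells the balance lay the other way, with 5 genes higher and 16 lower than in control cells. Again 21 genes passed, 52.5% beside 65.1% of all tested genes, of which 33.8% were higher and 31.4% lower. The median log2 fold change was -0.13, beside 0.03 for all genes, and the median size 0.19 beside 0.40. Rad51c as higher and Xrcc6 as lower passed the test for a change above 1.5-fold, 5% of the set beside 22.3% of all genes. This number was 1 with the Wald test of DESeq2, without control replicate 1 or 3 and without HD-het replicate 1 or 2.

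The 2 HD lines were also compared with each other directly. The control libraries enter this comparison only through the shared filter on low counts, normalization and estimate of spread. HD-homo cells had 19 genes higher and 6 lower than HD-het cells, 62.5% of the set beside 71.6% of all tested genes, of which 36.0% were higher and 35.6% lower. The median log2 fold change was 0.19, beside 0.00 for all genes, with a median size of 0.29 beside 0.46. Xrcc6 and Polq, both higher in HD-homo cells, passed the test for more than 1.5-fold, 5% of the set beside 30.6% of all genes. Both comparisons with control cells use the same 3 control libraries, so their values are given side by side for each gene and are not independent of each other.

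**Figure D1:**
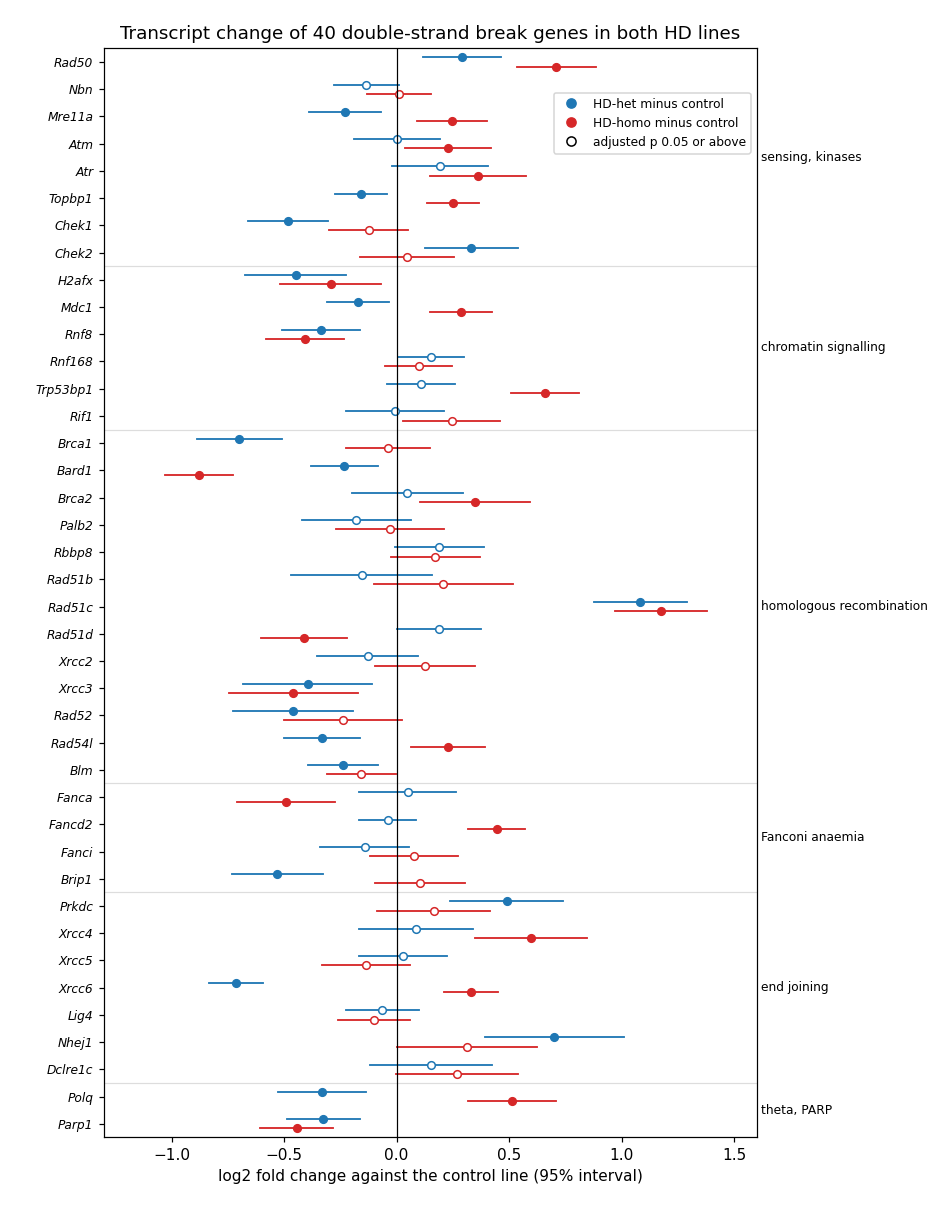
Log2 fold change (x axis) of each of the 40 genes, grouped by role, in HD-het cells (blue) and HD-homo cells (red) against control cells, with 95% intervals and filled points for an adjusted p under 0.05. Rad51c stands at the right in both lines, at 1.08 and 1.17, Bard1 at the left in HD-homo cells at -0.88, and most other genes lie within 0.5 of 0.

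Rad51c was the most changed gene of the set in both HD lines. It encodes a protein of homologous recombination that works in complexes with Xrcc3 and with Rad51b, Rad51d and Xrcc2, and the gene lies on the minus strand at chr11:87376645-87404954 (GRCm38, GENCODE). Its level was 7.28, 7.46 and 7.71 CPM in control libraries, 14.7, 17.2 and 15.7 CPM in HD-het and 16.1, 18.5 and 16.0 CPM in HD-homo libraries. All 6 HD libraries lay above all 3 control libraries, and the HD lines overlapped each other. The fold change was 2.12 in HD-het (log2 1.08, SE 0.094, adjusted p = 2.07e-06) and 2.25 in HD-homo cells (log2 1.17, SE 0.093, adjusted p = 9.57e-07), and the difference between the HD lines was 0.09 (SE 0.089, adjusted p = 0.374). The 36 tested genes within 2 Mb of Rad51c had median log2 fold changes of -0.11 and 0.03 in the same comparisons. Of the 50-base words of its longest coding transcript, 2.21% also occur in another gene.

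Bard1 fell most in HD-homo cells. The protein is the obligate partner of Brca1 in a ubiquitin ligase, and its gene lies at chr1:71027498-71103146 on the minus strand. Control libraries held 43.4, 43.3 and 39.4 CPM, HD-het libraries 35.8, 37.7 and 33.9 CPM and HD-homo libraries 22.9, 23.4 and 22.3 CPM. The 3 lines did not overlap, and their order ran from control to HD-het to HD-homo. The log2 fold change was -0.23 (SE 0.067, adjusted p = 0.0102) in HD-het and -0.88 (SE 0.069, adjusted p = 8e-07) in HD-homo cells, and -0.65 between the HD lines (adjusted p = 6.34e-06).

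Xrcc6, the smaller subunit of the Ku ring that threads onto broken ends before end joining, moved in opposite directions in the HD lines. The levels were 77.5, 74.2 and 78.5 CPM in control, 46.4, 45.7 and 48.2 CPM in HD-het and 99.0, 92.0 and 98.1 CPM in HD-homo libraries. No library of 1 line reached the range of another. The log2 fold change against control was -0.71 (SE 0.055, adjusted p = 9.12e-07) in HD-het and 0.33 (SE 0.054, adjusted p = 0.000344) in HD-homo cells, so that HD-homo cells held 2.06 times the HD-het level (adjusted p = 2.39e-08). Xrcc6 is the 1 gene of the set on chromosome 15 (chr15:81987835-82040085, plus strand), which as a whole was lower in HD-het cells. The median log2 fold change of its 540 tested genes was -0.55 in HD-het and 0.03 in HD-homo cells, and that of the 51 genes within 2 Mb of Xrcc6 was -0.53 and -0.02.

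The start regions of these 3 genes hold a motif of E2F, the family of factors that drives genes of the G1/S transition. It was searched as TTTCCCGC, TTTCGCGC, TTTGCCGC or TTTGGCGC on either strand in RefSeq promoters (GRCm38.p6, 250 bases before to 50 after each start), which matched 31 of the 40 genes by symbol and gave 35 promoters. The motif was found in 8 of the 35 (22.9%), belonging to Bard1, Brca2, Chek2, Mdc1, Rad51c, Topbp1 and Xrcc6, and in 744 of 32851 RefSeq promoters (2.26%). The latter were taken whether or not their genes were tested here. The share among promoters of tested genes was not computed. A match is a run of letters and not a bound site. The windows are shown because these genes passed the test for more than 1.5-fold against control cells, with the motif, or its reverse complement, in capitals. The first lies upstream of the RefSeq start of Bard1 (chr1:71103123-71103222, minus strand). The next 2 lie at the alternative starts of Rad51c (chr11:87404935-87405034 and chr11:87404487-87404586, minus strand) and the last at Xrcc6 (chr15:82016277-82016376, plus strand).
Bard1: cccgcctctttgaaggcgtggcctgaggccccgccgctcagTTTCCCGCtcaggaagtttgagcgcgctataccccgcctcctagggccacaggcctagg
Rad51c upstream start: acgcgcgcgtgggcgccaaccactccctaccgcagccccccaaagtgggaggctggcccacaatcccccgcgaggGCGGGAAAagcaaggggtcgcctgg
Rad51c downstream start: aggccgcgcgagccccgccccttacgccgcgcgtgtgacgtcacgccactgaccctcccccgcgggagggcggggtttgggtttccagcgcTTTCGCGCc
Xrcc6: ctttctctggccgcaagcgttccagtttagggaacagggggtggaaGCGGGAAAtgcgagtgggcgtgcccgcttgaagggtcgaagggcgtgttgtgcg
The motif begins 209 bases before the Bard1 start, 5 before and 11 after the respective Rad51c starts and 46 before the Xrcc6 start, all RefSeq starts. That of Xrcc6, at position 82016369 of chromosome 15, lies inside the GENCODE span of Xrcc6 given above, which begins further upstream. That of Bard1, at position 71102972 of chromosome 1, also lies inside the GENCODE span of its gene, and the Bard1 window partly overlaps that span. The 3 genes moved in different directions, as given above. Other motifs of cell cycle genes were searched in the same way. CCAAT occurred in 18 of the 35 promoters (51.4%) beside 37.4% of all, and TTTGAA in 4 (11.4%) beside 17.9%.

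**Figure D2:**
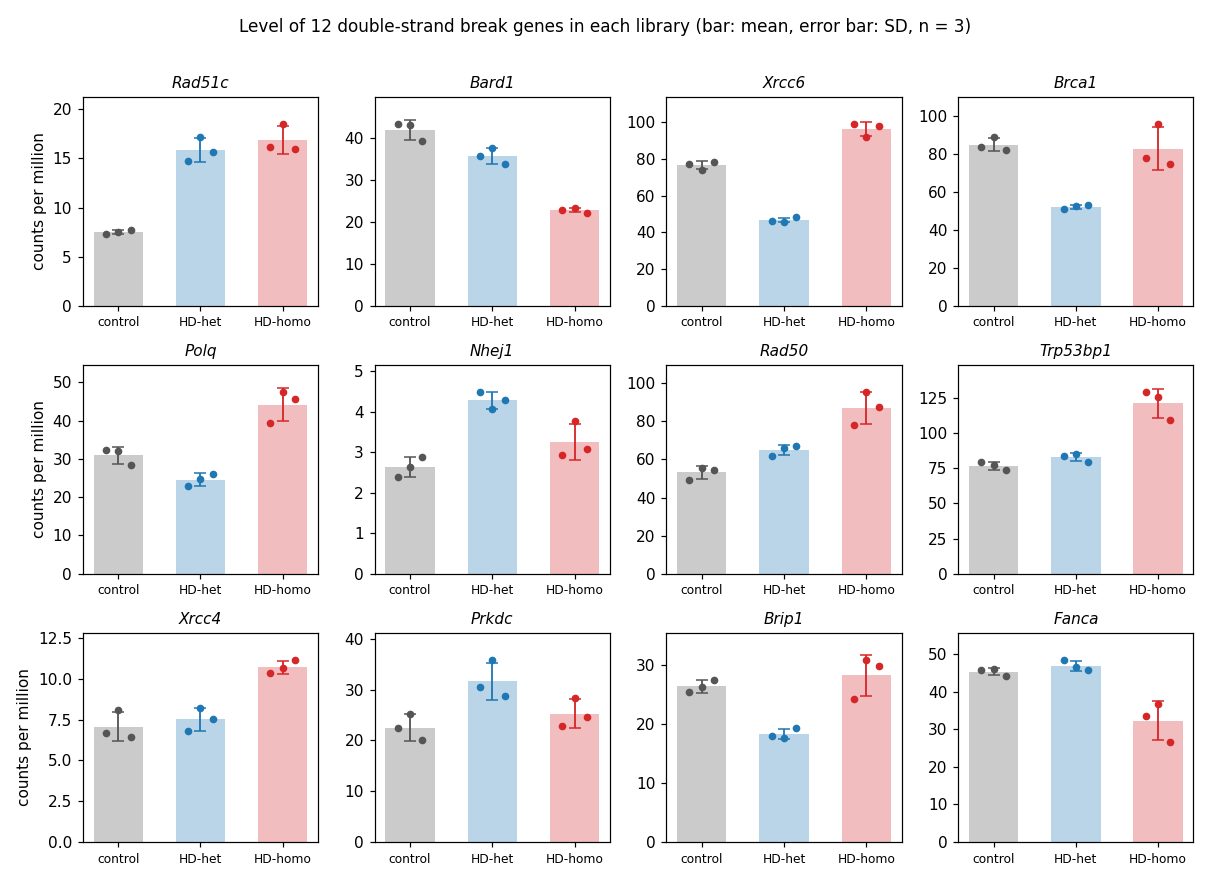
Normalized CPM (y axis, from 0) of 12 of the genes in each of the 9 libraries, with points for libraries, bars for the mean and error bars for the SD of 3 libraries. Rad51c is high in all 6 HD libraries, Brca1 and Brip1 are low in the 3 HD-het libraries, and Rad50, Trp53bp1 and Xrcc4 are highest in the HD-homo libraries.

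Among the 8 genes that sense breaks and signal from them, 5 were higher and 0 lower in HD-homo cells, and 2 were higher and 3 lower in HD-het cells. That is 62.5% in each line, beside 58.6% and 65.1% of all tested genes. Rad50, the ATPase that holds the ends together, rose most of these in HD-homo cells. Its level was 49.3, 55.7 and 54.5 CPM in control, 62.1, 65.8 and 67.0 CPM in HD-het and 78.1, 95.2 and 87.5 CPM in HD-homo libraries. The lines did not overlap, and HD-homo was highest. The log2 fold change was 0.29 (SE 0.079, adjusted p = 0.00741) in HD-het and 0.71 (SE 0.079, adjusted p = 1.56e-05) in HD-homo cells. Its partners moved less and not always with it. Mre11a, the nuclease of the complex, differed by -0.23 in HD-het (adjusted p = 0.0153) and 0.25 in HD-homo cells (adjusted p = 0.012), from a control mean of 68.0 ± 1.58 CPM, while Nbn, its remaining subunit, passed in neither line, with 50.2 ± 2.08, 45.7 ± 0.856 and 50.6 ± 3.51 CPM in control cells and the HD-het and HD-homo lines.

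The kinases downstream differed in which line they moved. Atm, the master kinase of the break response, had 73.5, 81.7 and 70.2 CPM in control, 68.7, 81.3 and 75.7 CPM in HD-het and 79.8, 95.5 and 88.9 CPM in HD-homo libraries. The HD-homo libraries overlapped both other lines, and the log2 fold change was 0.00 in HD-het (adjusted p = 0.985) and 0.23 in HD-homo cells (SE 0.087, adjusted p = 0.0402). Atr, the kinase of single-stranded DNA, was higher in HD-homo cells by 0.36 (adjusted p = 0.00768), and its activator Topbp1 was lower in HD-het by -0.16 (adjusted p = 0.0215) and higher in HD-homo cells by 0.25 (adjusted p = 0.00177). The effector kinases Chek1 and Chek2 moved in HD-het cells, in opposite directions. Chek1, which restrains entry into mitosis, had 38, 34.6 and 33.6 CPM in control, 23.5, 25.9 and 26.7 CPM in HD-het and 29.9, 33.8 and 33.7 CPM in HD-homo libraries, so that the HD-het libraries lay below all others (log2 fold change -0.48, SE 0.081, adjusted p = 0.000291). Chek2, the target of Atm, had 13.5, 12.9 and 13.8 CPM in control, 16.6, 17.9 and 16.1 CPM in HD-het and 13.8, 15.4 and 12.2 CPM in HD-homo libraries, with the HD-het libraries above all others (0.33, SE 0.094, adjusted p = 0.00905).

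Of the 6 genes of chromatin signalling at breaks, 2 were higher and 2 lower in HD-homo cells, and 0 higher and 3 lower in HD-het cells, or 66.7% and 50% beside 58.6% and 65.1% of all tested genes. H2afx had 154, 149 and 159 CPM in control, 107, 104 and 128 CPM in HD-het and 128, 107 and 142 CPM in HD-homo libraries. Every HD library lay below the control libraries, by -0.45 on the log2 scale (SE 0.10, adjusted p = 0.00235) in HD-het and -0.29 (SE 0.10, adjusted p = 0.0275) in HD-homo cells. H2afx transcripts exist with and without a poly(A) tail, and only those with a tail enter these libraries. Of its 50-base words, 6.14% occur in another gene. Mdc1, which reads phosphorylated H2AX, was lower in HD-het by -0.17 (adjusted p = 0.0307) and higher in HD-homo cells by 0.29 (adjusted p = 0.00223).

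Trp53bp1, which shields ends from resection, was higher in HD-homo cells than in both other lines. It had 79.5, 77.2 and 73.7 CPM in control, 83.5, 85.2 and 79.8 CPM in HD-het and 129, 126 and 110 CPM in HD-homo libraries. The HD-homo libraries stood clear of the rest, with a log2 fold change of 0.66 (SE 0.069, adjusted p = 8.82e-06) against control and 0.55 (adjusted p = 2.24e-05) against HD-het cells. Its effector Rif1 did not pass against control in either line, and its difference in HD-homo cells was 0.24 (adjusted p = 0.052). That difference passed in 9 of the 16 alternative analyses, with adjusted p between 0.00379 and 0.0491. Rnf8, the ubiquitin ligase recruited by Mdc1, was lower by -0.34 in HD-het (adjusted p = 0.00299) and by -0.41 in HD-homo cells (adjusted p = 0.00108), but 30.7% of its 50-base words occur in other genes, so its counts are uncertain. Rnf168, which extends the ubiquitin mark, had 59.3 ± 1.57, 66.0 ± 0.809 and 63.5 ± 5.76 CPM and passed in neither line.

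Homologous recombination is the largest role, with 13 genes, of which 3 were higher and 3 lower in HD-homo cells and 1 was higher and 6 lower in HD-het cells. These shares of 46.2% and 53.8% stand beside 58.6% and 65.1% of all tested genes. Brca1 had 83.4, 88.8 and 82.2 CPM in control, 51.1, 52.4 and 53.2 CPM in HD-het and 77.6, 95.5 and 74.6 CPM in HD-homo libraries. The HD-het libraries lay below all others (log2 fold change -0.70, SE 0.086, adjusted p = 3.01e-05), while HD-homo and control libraries overlapped (-0.04, SE 0.085, adjusted p = 0.726). Brca1 lies at chr11:101488764-101551955, and the 93 tested genes within 2 Mb had a median log2 fold change of -0.09 in HD-het cells.

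Of the mediators of recombination, 1 passed against control cells. Brca2, a mediator of strand exchange on resected DNA, was higher in HD-homo cells by 0.35 (SE 0.11, adjusted p = 0.0198), with libraries that overlapped those of control cells. Palb2, the bridge between Brca1 and Brca2, had 11.3 ± 0.292, 9.96 ± 0.421 and 11.1 ± 1.72 CPM, and Rbbp8, which starts resection, 39.5 ± 3.29, 45.0 ± 3.08 and 44.4 ± 4.41 CPM in control cells and the HD-het and HD-homo lines. Neither passed in any comparison.

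Rad51c and the proteins it works with did not move as a group. Against the rise of Rad51c, Rad51d had 13.7, 13.1 and 15.1 CPM in control, 16.0, 15.9 and 15.7 CPM in HD-het and 9.60, 10.9 and 10.9 CPM in HD-homo libraries. The HD-homo libraries were below all others, with a log2 fold change of -0.41 (SE 0.086, adjusted p = 0.00172) against control and -0.60 (adjusted p = 6.83e-05) against HD-het cells. Xrcc3, which binds Rad51c, had 8.52, 8.50 and 8.05 CPM in control, 6.34, 5.82 and 6.89 CPM in HD-het and 7.36, 5.33 and 5.61 CPM in HD-homo libraries. All HD libraries lay below the control libraries, with -0.40 (SE 0.13, adjusted p = 0.0198) in HD-het and -0.46 (SE 0.13, adjusted p = 0.0107) in HD-homo cells. Rad51b and Xrcc2 did not pass against control in either line, with log2 fold changes of -0.15 and -0.13 in HD-het and 0.21 and 0.13 in HD-homo cells.

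Of the remaining recombination genes, Rad52, a single-strand annealing protein, was lower in HD-het cells by -0.46 (SE 0.12, adjusted p = 0.00578), and Blm, the helicase that dissolves crossed strands, by -0.24 (SE 0.070, adjusted p = 0.0108). Neither passed in HD-homo cells, where the log2 fold changes were -0.24 and -0.16. Rad54l, a motor protein of strand exchange, was lower in HD-het by -0.33 (adjusted p = 0.00251) and higher in HD-homo cells by 0.23 (adjusted p = 0.0211).

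Of the 4 Fanconi anaemia genes, which act where replication meets crosslinked DNA, 1 was higher and 1 lower in HD-homo cells and 0 higher and 1 lower in HD-het cells (50% and 25% of them, beside 58.6% and 65.1% of all tested genes). Brip1, a helicase that binds Brca1, had 25.4, 26.3 and 27.5 CPM in control, 17.9, 17.6 and 19.3 CPM in HD-het and 24.3, 30.8 and 29.8 CPM in HD-homo libraries. As for Brca1, the HD-het libraries were the low ones (log2 fold change -0.53, SE 0.093, adjusted p = 0.000409), and HD-homo overlapped control. Fanca, a subunit of the core ubiquitin ligase, had 45.7, 46.1 and 44.4 CPM in control, 48.4, 46.7 and 45.8 CPM in HD-het and 33.5, 36.8 and 26.5 CPM in HD-homo libraries. Here the HD-homo libraries were low (-0.49, SE 0.099, adjusted p = 0.00138). Fancd2, the clamp that the core complex ubiquitinates, rose in HD-homo cells by 0.44 (SE 0.057, adjusted p = 5.1e-05), from 36.6 ± 0.800 to 49.9 ± 2.06 CPM, and its clamp partner Fanci had 29.1 ± 1.6 and 30.7 ± 3.57 CPM (adjusted p = 0.473).

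The 7 genes of non-homologous end joining gave 2 higher and 0 lower in HD-homo cells and 2 higher and 1 lower in HD-het cells, which is 28.6% and 42.9% beside 58.6% and 65.1% of all tested genes. Besides Xrcc6, Xrcc4 passed against control in HD-homo cells and Nhej1 and Prkdc in HD-het cells. Xrcc4, the scaffold of DNA ligase IV, had 6.72, 8.12 and 6.42 CPM in control, 6.80, 8.23 and 7.58 CPM in HD-het and 10.4, 10.7 and 11.2 CPM in HD-homo libraries. The HD-homo libraries lay above all others, by 0.60 (SE 0.11, adjusted p = 0.00092) against control. Nhej1, also called XLF, which aligns the ends with Xrcc4, was among the lowest transcripts of the set, with 2.4, 2.65 and 2.87 CPM in control, 4.48, 4.08 and 4.28 CPM in HD-het and 2.94, 3.77 and 3.07 CPM in HD-homo libraries. The HD-het libraries were highest, by 0.70 (SE 0.14, adjusted p = 0.00104) against control, and the difference of 0.31 in HD-homo cells did not pass (adjusted p = 0.08).

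Prkdc, the kinase that Ku recruits, had 22.5, 25.1 and 20 CPM in control, 30.5, 35.8 and 28.7 CPM in HD-het and 22.8, 28.3 and 24.6 CPM in HD-homo libraries. It was higher in HD-het cells (log2 fold change 0.49, SE 0.11, adjusted p = 0.00284), where all 3 libraries lay above the 6 of the other lines, and overlapped control in HD-homo cells (adjusted p = 0.239). Xrcc5, the larger Ku subunit, passed in no comparison, with 41.0 ± 3.16, 41.8 ± 1.37 and 37.3 ± 4.25 CPM. The same holds for the ligase Lig4, with 21.2 ± 0.978, 20.3 ± 1.41 and 19.8 ± 0.180 CPM, and for Dclre1c, which opens hairpin ends, with 11.8 ± 0.944, 13.2 ± 1.31 and 14.2 ± 2.16 CPM.

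Of the 2 alternative joining genes, 1 was higher and 1 lower in HD-homo cells, and 0 were higher and 2 lower in HD-het cells. That is 100% in each line, beside 58.6% and 65.1% of all tested genes, but 2 genes are too few to read a share from. Polq, the polymerase that joins ends by short homologies, had 32.2, 32.2 and 28.4 CPM in control, 22.9, 24.7 and 26.1 CPM in HD-het and 39.3, 47.4 and 45.8 CPM in HD-homo libraries. The lines did not overlap, with HD-het lowest and HD-homo highest. The log2 fold change was -0.33 (SE 0.090, adjusted p = 0.00683) in HD-het, 0.51 (SE 0.088, adjusted p = 0.000441) in HD-homo cells and 0.84 between them (SE 0.089, adjusted p = 6.04e-06). Parp1 had 188, 187 and 207 CPM in control, 152, 144 and 169 CPM in HD-het and 152, 134 and 141 CPM in HD-homo libraries. All HD libraries lay below the control libraries, with -0.33 (SE 0.074, adjusted p = 0.00232) in HD-het and -0.44 (SE 0.074, adjusted p = 0.00034) in HD-homo cells, and the HD lines overlapped.

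Several calls of these small differences were lost when 1 library was left out. Against control, the calls in HD-homo cells of Atm, Brca2, H2afx and Rad54l were each lost without control replicate 1, without control replicate 3 and without HD-homo replicate 2, those of Atm and Brca2 also without HD-homo replicate 3, and that of Mre11a without control replicate 1. Their adjusted p then lay between 0.0503 and 0.141. In HD-het cells the calls of Mdc1, Topbp1 and Xrcc3 were each lost on leaving out any of 4 libraries, those of Mre11a without HD-het replicate 1 or 2 and that of Blm without control replicate 2, with adjusted p between 0.0531 and 0.105. Mdc1 lost its call without control replicates 1 and 3 and HD-het replicates 1 and 2, Topbp1 without control replicates 1 and 2 and HD-het replicates 1 and 3, and Xrcc3 without control replicates 1 and 2 and HD-het replicates 1 and 2. Other genes gained a call with 1 library left out. In HD-homo cells these were Blm without control replicate 3, Brca1 and Xrcc2 without HD-homo replicate 2, Brip1 without HD-homo replicate 1 and Dclre1c and Rad52 without HD-homo replicate 3. In HD-het cells they were Atr without control replicate 2, Rad51d without control replicate 3, Rbbp8 without HD-het replicate 3 or HD-homo replicate 2 and Rnf168 without HD-homo replicate 1 or 3. Over the alternatives that gave these genes a call, the adjusted p lay between 0.00948 and 0.0488. Of the reported calls, 16 in each of these comparisons held in all 16 alternative analyses.

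Proteins of this set act in pairs, and for some pairs the ratio of partner transcripts differed between the lines. The ratios are of levels per length, with 10 pairs computed over 3 lines. The libraries of the lines compared stood apart in 21 of 30 comparisons and overlapped in the rest. Levels of single genes often stood apart too. Of all 13508 tested genes, 8820 had HD-homo libraries apart from control, and 10001 had HD-het libraries apart from control. For 9832 genes the 2 HD lines were apart. Ratios of other gene pairs were not computed, so the count of 21 cannot show that these pairs differed more than others. Nbn to Mre11a overlapped control libraries in both HD lines. Palb2 to Brca2 and Nhej1 to Xrcc4 did so in HD-homo cells, and Fanci to Fancd2 in HD-het cells. The pairs were chosen after their values were known, so no test is given, and 3 libraries against 3 could not give an exact p below 0.1. Bard1 to Brca1 was 0.604, 0.566 and 0.556 in control, 0.813, 0.835 and 0.740 in HD-het and 0.342, 0.284 and 0.347 in HD-homo libraries. The lines stood apart, with HD-het highest and HD-homo lowest. For the Ku subunits, Xrcc6 to Xrcc5 was 1.57, 1.43 and 1.37 in control, 0.893, 0.836 and 0.873 in HD-het and 1.89, 1.83 and 2.34 in HD-homo libraries, again without overlap but in the opposite order of the HD lines. Xrcc3 to Rad51c was 1.91, 1.86 and 1.70 in control libraries and between 0.470 and 0.743 in the 6 HD libraries. The ratio thus fell below 1 in every HD library, since Rad51c was higher and Xrcc3 lower. A ratio shows unequal change and not which protein is limiting.

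**Figure D3:**
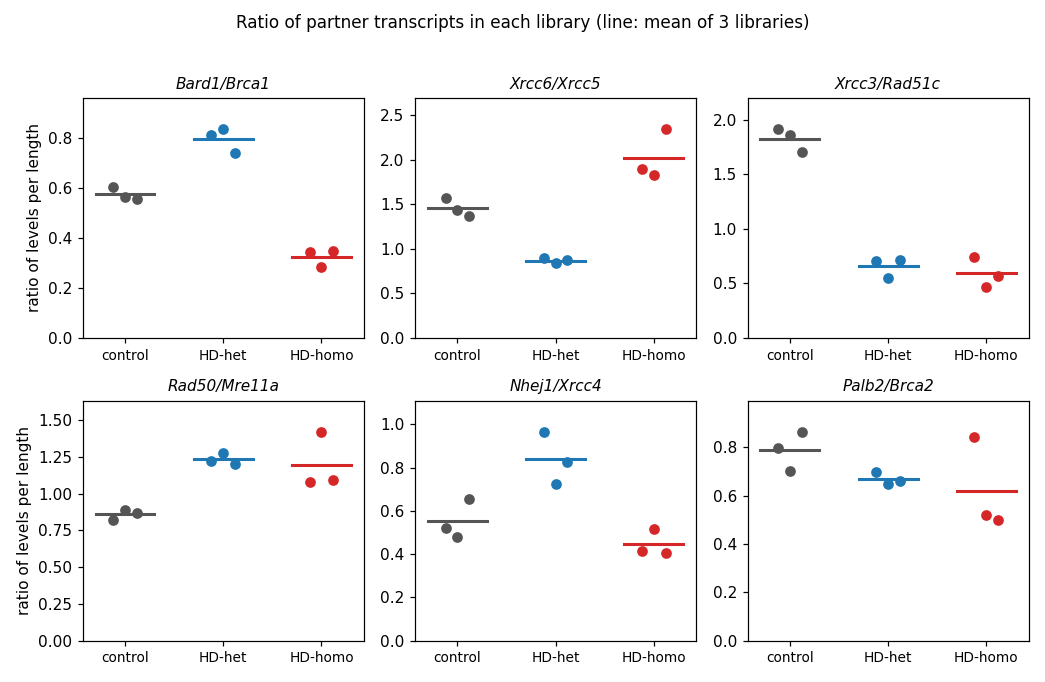
Ratio of the levels per length of 6 partner pairs (y axis, from 0) in each library of the 3 lines, with a line at the mean of 3 libraries. Bard1/Brca1 and Xrcc6/Xrcc5 separate all 3 lines, in opposite order for the HD lines, and Xrcc3/Rad51c is above 1.5 in control and below 1 in HD libraries.

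The other double-strand break repair genes, a further list of 62 written from general knowledge with 61 tested, were counted in the same way. In HD-homo cells 18 were higher and 10 lower than in control, HD-het cells had 11 higher and 27 lower, and HD-homo against HD-het cells gave 34 higher and 8 lower. These are 45.9%, 62.3% and 68.9% of the list, beside 58.6%, 65.1% and 71.6% of all genes, with median log2 fold changes of 0.07, -0.11 and 0.24. The list was written with earlier results of these data known.

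By size of change, the largest rises in HD-homo cells were of Mcm8, a helicase of recombination (12.7 ± 1.13 to 23.2 ± 2.03 CPM, log2 fold change 0.87, adjusted p = 8.49e-06), and Parp2, a relative of Parp1 (26.2 ± 2.57 to 39.0 ± 0.782 CPM, 0.57, adjusted p = 5.54e-05). The largest falls were of Zfp365 (40.5 ± 1.53 to 21.9 ± 2.10 CPM, -0.88, adjusted p = 3.42e-06) and Xrcc1, the scaffold of single-strand break repair (37.0 ± 1.5 to 23.3 ± 1.31 CPM, -0.67, adjusted p = 6.52e-06). In HD-het cells Fancl, the ubiquitin ligase that modifies Fancd2, rose by 0.59 (adjusted p = 0.000186) and Fan1, a nuclease whose human gene modifies the age at onset of HD, by 0.51 (5.91 ± 0.735 to 8.41 ± 0.299 CPM, adjusted p = 0.0021). The largest falls there were of the helicase Recql4, from 52.5 ± 2.04 to 21.1 ± 0.723 CPM (-1.31, adjusted p = 2.01e-08), and the fork protection gene Timeless, from 117 ± 2.29 to 64.0 ± 2.15 CPM (-0.87, adjusted p = 4.46e-07). Recql4 lies on chromosome 15 and Timeless on chromosome 10, whose tested genes had median log2 fold changes of -0.55 and -0.31 in HD-het cells.

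Cell cycle genes moved beside the repair genes. Of 25 genes of S phase, 18 were lower and 2 higher in HD-het cells, with a median log2 fold change of -0.41, and 6 were higher and 5 lower in HD-homo cells, with a median of -0.08. The shares that passed were 80% in HD-het, beside 65.1% of all tested genes, and 44% in HD-homo cells, beside 58.6%. Their summed level was 4094 to 4399 CPM in control, 3075 to 3489 in HD-het and 3868 to 4466 in HD-homo libraries. HD-het libraries were thus below all others. Of 21 mitosis genes, 9 were lower and 3 higher in HD-het and 11 higher and 1 lower in HD-homo cells, with summed levels of 4065 to 4381, 3708 to 3893 and 4205 to 5159 CPM. These are 57.1% in each line, beside 65.1% and 58.6% of all tested genes, and the median log2 fold change was 0.01 in HD-het and 0.22 in HD-homo cells. HD-homo against HD-het cells gave 17 higher and 2 lower of the S-phase genes and 14 higher and 1 lower of the mitosis genes. These shares of 76% and 71.4% were near the 71.6% of all tested genes, of which 36.0% were higher and 35.6% lower. Single genes did not all follow their list. Mcm2, a subunit of the replicative helicase, and Pcna, the polymerase clamp, were lower in HD-het cells by -0.27 and -0.21 (adjusted p = 0.0171 and 0.0138) and did not pass in HD-homo cells (-0.08 and 0.02). Top2a, the topoisomerase of dividing cells, was lower in HD-het by -0.35 (adjusted p = 0.00339) and higher in HD-homo cells by 0.28 (adjusted p = 0.0127), whereas the proliferation marker Mki67 was higher in both, by 0.40 and 0.49 (adjusted p = 0.00716 and 0.00251). Whether the cell cycle has a part in the changes of the repair genes was not tested.

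The genes that p53 induces after DNA damage, listed together with its own gene Trp53, did not move in 1 direction. Of 25 tested, 6 were higher and 7 lower in HD-homo cells, 8 higher and 9 lower in HD-het cells, and 8 higher and 10 lower between the HD lines. The shares of 52%, 68% and 72% were near the 58.6%, 65.1% and 71.6% of all tested genes. Cdkn1a, the cell cycle inhibitor p21, had 91.0 ± 24.4, 113 ± 31.0 and 73.3 ± 20.7 CPM in control cells and the HD-het and HD-homo lines, with overlapping libraries, and did not pass against control in HD-het (0.31, adjusted p = 0.292) or HD-homo cells (-0.31, adjusted p = 0.315). Mdm2, the ligase that degrades p53, was lower in HD-het cells by -0.61 (180 ± 24.3 to 118 ± 4.02 CPM, adjusted p = 0.00352).

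**Figure D4:**
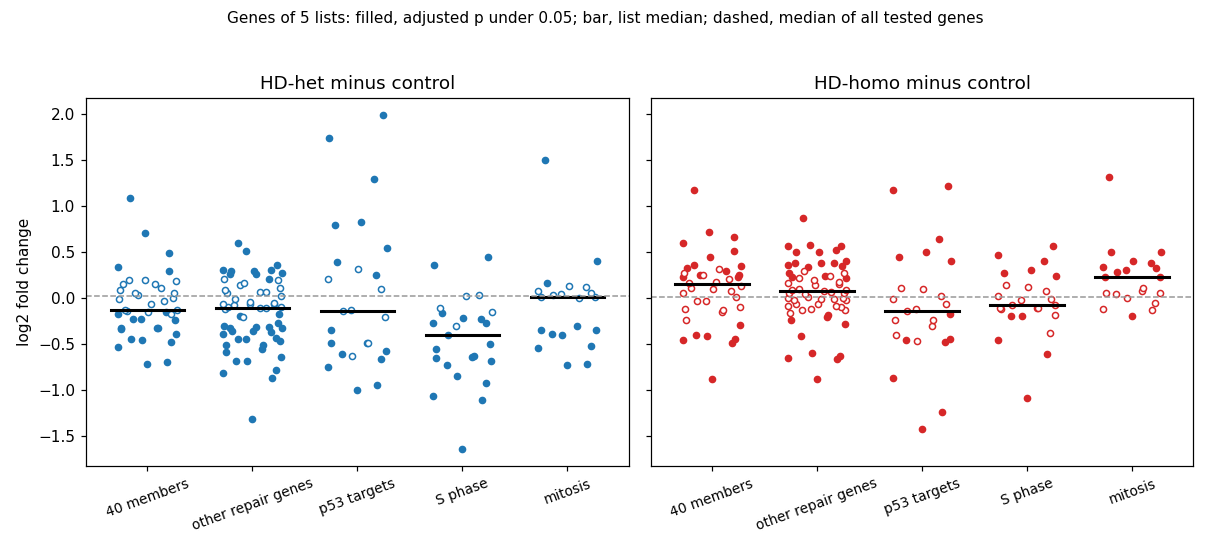
Log2 fold change against control cells (y axis) of single genes in 5 lists, in HD-het (left) and HD-homo cells (right), with filled points for an adjusted p under 0.05, bars for list medians and a dashed line for the median of all tested genes. The S-phase list lies lowest in HD-het cells with a median of -0.41, and the mitosis list highest in HD-homo cells with a median of 0.22.

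The 40 genes lie on 15 chromosomes, and the median change of the tested genes differed between chromosomes. On chromosome 18, which holds Rbbp8, the median log2 fold change was 0.33 in HD-het and -0.05 in HD-homo cells, and -0.41 between the HD lines. The tested genes of chromosome 2, which holds Trp53bp1, Rif1 and Dclre1c, had median log2 fold changes of 0.24 in HD-het and 0.22 in HD-homo cells, beside 0.11 and 0.66 for Trp53bp1. On chromosome 15, 69.1% of the tested genes were lower and 12.2% higher in HD-het cells. The chromosome's median relative to the control mean was -0.525, -0.547 and -0.520 on the log2 scale for the HD-het replicates, and the HD-homo replicates lay from 0.016 to 0.038. Thus all 3 HD-het libraries, and none of the HD-homo libraries, had low levels across the chromosome that holds Xrcc6. Whether the lines differ in the number of copies of any chromosome was not tested. On chromosome 11, by contrast, Rad51c and Rad50 stood above a median of 0.02 and Rad51d below it in HD-homo cells.

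**Figure D5:**
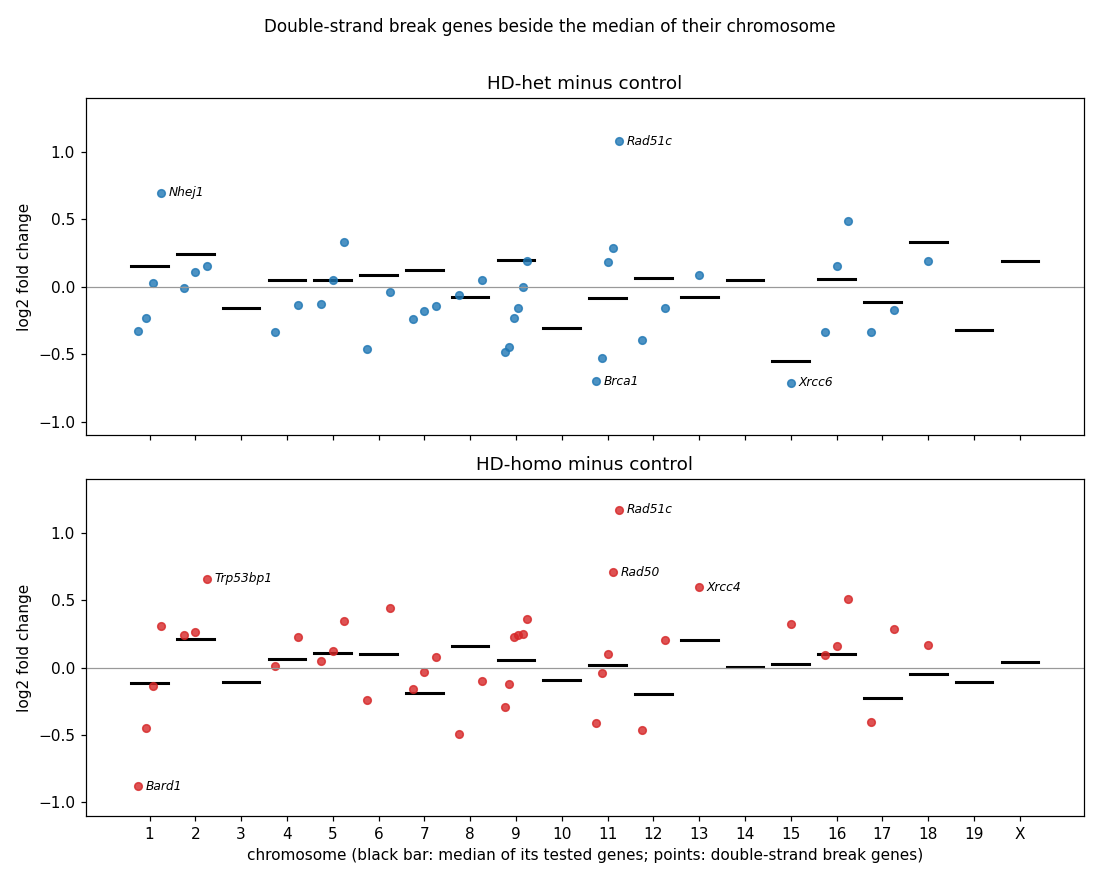
Log2 fold change against control cells (y axis) of the 40 genes (points) by chromosome (x axis), beside the median of all tested genes of each chromosome (black bars), for HD-het (top) and HD-homo cells (bottom). In HD-het cells Xrcc6 at -0.71 lies near the chromosome 15 median of -0.55, whereas Rad51c at 1.08 is far from the chromosome 11 median of -0.08.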

How the data were processed

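RNA was measured in 9 libraries, 3 for each line. Per the labels, total RNA was isolated (miRNeasy), poly(A) RNA was selected and strand-specific libraries were made (NEBNext Ultra II directional). The submitters' processing notes name cutadapt, Bowtie 1.1.2, RSEM 1.3.0 and DESeq2 and the builds GRCm38.p5 and mm10, without saying which step each served. The annotation is not given in the sources used here. The authors deposited raw counts per gene symbol, as whole numbers without normalization. If RSEM made them they are rounded estimates that share reads between similar genes. Ribosome-protected fragments were not used here, and 26 of the 36410 rows are named by a date in place of a symbol.

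The statistics were computed with edgeR 4.0.16 under R 4.3.3. The filter on low counts was filterByExpr (minimum count 10, lines as groups), normalization was by TMM, and all 9 libraries entered 1 quasi-likelihood fit with a mean for each line. The lines were compared in 3 pairs with Benjamini-Hochberg adjustment over all tested genes, with a threshold of 0.05, and again against a fold change of 1.5 (glmTreat). Levels are normalized CPM with the SD of 3 libraries. Levels per length used the longest coding transcript of GENCODE M21, which may not be the one expressed. On simulated data with 188 changed genes among 12741 in the HD-homo against control comparison, 182 were recovered and 12 of 194 calls were false. The planted changes were all larger than 1.5-fold and in a small share of the genes. Recovery of smaller changes, such as most of those reported here, was therefore not tested.

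The 40 genes and all lists were chosen with earlier results of these data known. All 40 are named. Values of every library are given for genes among the 4 largest increases or decreases past the threshold in any comparison and for Brca1, Atm, H2afx and Trp53bp1. From the other repair genes the 2 largest increases and decreases in each HD line are named, and from the remaining lists Cdkn1a, Mdm2, Mcm2, Pcna, Mki67 and Top2a. A further gene the rule names is not reported here. Htt and marker genes were named after their values were seen. Shared 50-base words, neighbours within 2 Mb and positions come from GENCODE on GRCm38. Of the 40 genes, 27 share no 50-base word with another gene, 19 overlap a gene on the other strand and 7 one on the same strand. Fam175a and Bre of the other repair genes are each listed a second time under a newer symbol, so their counts are uncertain.

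The alternatives were DESeq2's size factors inside edgeR, library totals alone, DESeq2's own Wald test (version 1.42.0), no filter, a minimum of 10 counts in all libraries, a fit of the 2 lines alone, a block for the replicate number, and leaving out single libraries. Figures were drawn with matplotlib 3.10.9.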

Additional observations from a re-analysis of the deposited data

Results flagged for a closer look

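For 6 of the 40 genes the fold change against control cells differed between the HD lines, with HD-homo cells higher and HD-het cells lower than control cells and a test of the difference itself (edgeR's quasi-likelihood test, adjusted over all genes). That pattern of calls, from comparisons that share the control libraries, was found in 15% of the set beside 6.34% of all tested genes, and the reverse pattern in 0 of the set beside 8.18%. Of the 6 genes, Mdc1, Mre11a, Rad54l and Topbp1 lost a call against control when certain single libraries were left out, as given above. Xrcc6 and Polq kept their calls under all 16 alternatives. Since the 6 genes were picked for opposite calls, a difference between the HD lines was largely fixed in advance. The adjusted p-values of that difference are therefore no separate support. Xrcc6, the Ku subunit, differed by 1.04 on the log2 scale between HD-homo and HD-het cells (adjusted p = 2.39e-08) and lies on chromosome 15, whose genes were lower in HD-het cells. Polq, of end joining by short homologies, differed by 0.84 (adjusted p = 6.04e-06), with 39.3 to 47.4 CPM in HD-homo and 22.9 to 26.1 CPM in HD-het libraries. For Rad54l the difference was 0.56 (adjusted p = 4.23e-05), with 32.6 to 37.8 CPM against 22.6 to 24.3 CPM. The nuclease Mre11a differed by 0.48 (adjusted p = 0.000105), with 73.9 to 88.4 CPM against 55.9 to 61.6 CPM. Mdc1 differed by 0.46 (adjusted p = 4.74e-05), with 83.8 to 95.2 CPM against 61.8 to 66.9 CPM, and Topbp1 by 0.41 (adjusted p = 3.16e-05), with 292.4 to 312.9 CPM against 218.3 to 236.4 CPM. No HD-homo library of these 6 genes overlapped an HD-het library, which follows largely from how the genes were picked and adds no support. The libraries of the 2 HD lines also stood apart, in either direction, for 9832 of all 13508 tested genes. The summed level of the S-phase genes, 3075 to 3489 CPM in HD-het and 3868 to 4466 CPM in HD-homo libraries, moved in the same direction, and its part in these differences was not tested.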

How the results depend on the processing

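Each comparison was recomputed under 16 alternatives, of which 9 leave out 1 library. Of the 40 genes, the number that passed against control ran from 16 to 26 in HD-homo cells and from 17 to 23 in HD-het cells, and from 19 to 26 between the HD lines, and no gene that passed in the reported analysis changed its direction. The number of genes past a 1.5-fold change in HD-het cells was 1 with the Wald test of DESeq2 and ran from 1 to 3 without single libraries. Between the HD lines the calls of Atm, Brca2, Chek2, Fanci, Nhej1, Prkdc, Rad51b, Rif1 and Xrcc2 were lost under at least 1 alternative, with adjusted p between 0.0514 and 0.169, and 16 calls held in all. The cause was not tested.

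Values that changed sign belonged to genes that did not pass. Without single libraries, HD-homo against control ran from -0.0436 to 0.0553 for Nbn, -0.155 to 0.0285 for Brca1, -0.0402 to 0.126 for Chek2 and -0.164 to 0.0367 for Palb2. HD-het against control ran from -0.0557 to 0.0653 for Atm, -0.0176 to 0.0901 for Xrcc5, -0.0905 to 0.0664 for Rif1 and -0.0355 to 0.129 for Brca2. HD-homo against HD-het ran from -0.099 to 0.0377 for Rbbp8, -0.0696 to 0.0193 for Lig4, -0.126 to 0.008 for Rnf168 and -0.216 to 0.0307 for Xrcc3. Atm in HD-het cells was -4e-04 with DESeq2's size factors and with its Wald test, -0.0117 with library totals, -0.0044 with no filter and -0.0018 with only the 2 lines, and Rbbp8 between the HD lines was 0.0131 with library totals.

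The replicate numbers do not pair the libraries by any label. Deviations of same-numbered libraries correlated at 0.00893 to 0.0332 between HD-homo and control and 0.0488 to 0.145 between HD-het and control. All 6 libraries correlated best with their own number in these comparisons, and 4 of 6 between the HD lines. With the replicate block, 26 of the 40 genes passed in HD-homo and 23 in HD-het cells against control, and 25 between the HD lines.

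Depth limits the lowest transcripts, Rad51b and Nhej1, most, and an interval that includes 0 does not show that a level was equal.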
